A study of Mus musculus with 12 samples.

Results

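The 4 Notch receptors were described in small vessel fragments of the mouse brain, with and without Notch3. Every probe set annotated to Notch1, Notch2, Notch3 or Notch4 and to no other gene was taken, which gave 9 of the 45037 probe sets on the array after its 64 control probe sets were set aside, and 4 of the 18193 genes that these name singly. Notch1, Notch2 and Notch3 had 2 probe sets each and Notch4 had 3. The fragments came from cerebrum and cerebellum of C57BL/6 mice aged 2 months. Each sample was hybridised to its own Affymetrix Mouse Genome 430 2.0 array, so 12 arrays were analysed. Arrays with the same genotype and replicate number were taken as the regions of the same mouse, which gives 6 mice. The labels do not say so in words. The groups were cerebral vessels of Notch3 knockout mice (n = 3), cerebral vessels of control littermates, whose genotype is given as wildtype (n = 3), cerebellar vessels of the knockouts (n = 3) and cerebellar vessels of the controls (n = 3). No group received a treatment. The sources used here do not give the position of the deletion within Notch3 or the making of the line.

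Notch receptors span the cell membrane and are activated by a ligand of the Delta or Jagged family on a neighbouring cell. Binding lets ADAM proteases and then gamma-secretase cut the receptor, and the freed intracellular domain enters the nucleus, where it joins RBPJ and Mastermind proteins and switches on genes of the Hes and Hey families. In blood vessels Notch3 is known as the receptor of mural cells, that is smooth muscle cells and pericytes, and mutations of human NOTCH3 cause the inherited small vessel disease CADASIL. Notch1 and Notch4 are best known from endothelial cells, and Notch2 is expressed in smooth muscle as well.

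Only Notch3 and Notch4 had a probe set that passed the test between genotypes, and both genes lie on mouse chromosome 17. Their promoters are shown because only these receptors had a called probe set, Notch4 in cerebellar vessels only. A link between promoter sequence and transcript level was not tested. The sequences are RefSeq's, of build GRCm38.p6, and run from 250 bases before to 50 bases after the annotated start, 5′ to 3′ on the gene's own strand. Notch3 is on the minus strand at chr17:32166841-32167140, and Notch4 is on the plus strand at chr17:34564045-34564344. Capitals mark the GC box GGGCGG or its complement CCGCCC, the letters that SP family factors are known to bind.
Notch3: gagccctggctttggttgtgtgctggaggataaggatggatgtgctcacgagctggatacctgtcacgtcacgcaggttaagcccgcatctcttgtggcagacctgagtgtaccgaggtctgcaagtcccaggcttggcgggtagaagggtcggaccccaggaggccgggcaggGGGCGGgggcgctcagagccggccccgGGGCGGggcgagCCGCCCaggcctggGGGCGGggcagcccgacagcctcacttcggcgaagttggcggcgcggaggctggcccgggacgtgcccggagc
Notch4: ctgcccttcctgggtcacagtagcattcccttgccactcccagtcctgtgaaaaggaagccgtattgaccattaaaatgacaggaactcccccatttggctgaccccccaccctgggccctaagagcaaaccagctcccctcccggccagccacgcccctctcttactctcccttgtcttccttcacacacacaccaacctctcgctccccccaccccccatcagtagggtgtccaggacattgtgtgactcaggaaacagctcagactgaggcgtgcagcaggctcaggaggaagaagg
The Notch3 window held 4 GC boxes and the Notch4 window held 0, and 35.7% of all 32851 promoters of this length held at least 1. G and C made up 70.0% of the Notch3 window and 58.3% of the Notch4 window, against a median of 52.7% over all promoters. The letters TGGGAA, the core that RBPJ is known to bind, were in neither window on either strand, nor in the windows of Notch1 and Notch2. They occurred in 25.6% of all promoters. The core GGAA of ETS factors, counted on both strands, occurred 0 times in the Notch3 window and 7 times in the Notch4 window, and 96.0% of promoters held it.

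Values are log2 expression values as deposited, over a range of 0.69 to 16.29 in the whole table. A probe set was tested if at least 3 of 12 arrays exceeded the median of all values, 3.27, which served as the background level here, and 6 receptor probe sets met this. The other 3 were at or under the background on all 12 arrays. They were the Notch2 probe set 1451889_at, at 2.08 to 2.11, and the Notch4 probe sets 1436901_at, at 2.84 to 3.02, and 1456263_at, at 1.68 to 1.70. Notch2 and Notch4 are therefore described by 1 probe set each, which was well above the background on all 12 arrays. Probe sets differ in their response, so receptor levels were set side by side within a probe set only. The summed levels of marker lists given below add probe sets of different brightness, and the brightest weigh most in them.

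Tests were made with limma on 22767 probe sets, and a probe set is called where its Benjamini-Hochberg adjusted p over all of them was under 0.05. Array medians ran from 3.24 to 3.30. The fragments held the transcripts of endothelial cells, with 13 of 14 listed markers tested, and of smooth muscle cells, with 8 of 8, and none of these tested markers was at or under the background on all 3 arrays of a group. Astrocyte, microglia and choroid plexus markers were measured as well, 7 of 8, 9 of 9 and 4 of 4. Xist, which marks female mice, was above the background on 8 of the 12 arrays, and the labels give no sex.

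Notch3 transcript was at background in the knockout vessels of both regions, which bears out the genotype labels of all 12 arrays. The brighter Notch3 probe set, 1421965_s_at, read 2.48, 2.48 and 3.15 in the 3 knockout cerebral arrays, against 11.32, 11.61 and 10.84 in the 3 control cerebral arrays. In cerebellar vessels it read 3.15, 3.58 and 2.48 in knockouts, against 11.73, 12.02 and 11.78 in controls. Only 1 knockout array, of cerebellar vessels, exceeded the background with this probe set, and no knockout value came near a control value. The knockout level was at least 253.3-fold lower than the control level in cerebral vessels and at least 353.7-fold lower in cerebellar vessels, with adjusted p of 1.79e-07 and 1.54e-07. These folds are bounds, because knockout values under the background were raised to it.

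The second Notch3 probe set, 1421964_at, gave the same picture at a lower brightness. It read 3.18, 3.29 and 2.37 in knockout cerebral vessels, against 7.27, 7.82 and 6.74 in control cerebral vessels. Cerebellar values were 3.76, 2.49 and 2.21 in knockouts, against 8.19, 8.21 and 7.996 in controls. The knockout level was at least 16.0-fold lower in cerebral vessels and at least 26.0-fold lower in cerebellar vessels, with adjusted p of 0.000196 and 5.28e-05. Over the 6 control arrays the 2 Notch3 probe sets moved together, with a Pearson correlation of 0.97 that is given as a description, since regions of a mouse share that mouse. Where the probes lie relative to the deleted part is not given in the sources used here.

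**Figure D1:**
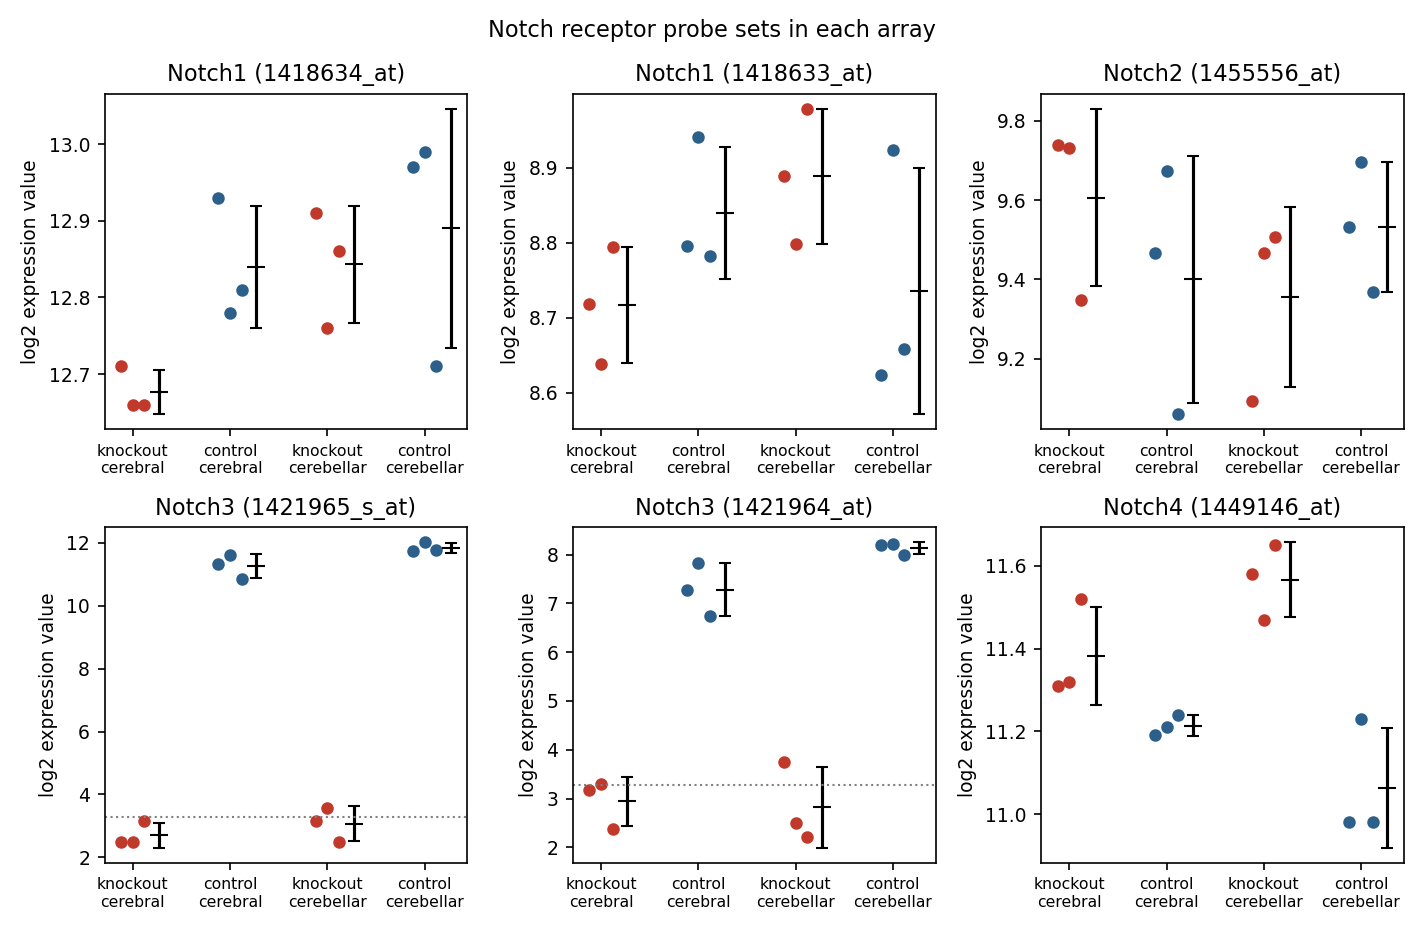
Each panel plots 1 receptor probe set, with the log2 expression value on the vertical axis and 1 point for each of the 3 arrays of a group, and a bar with whiskers for the mean and SD; axes differ between panels and the dotted line in the Notch3 panels is the background of 3.27. Both Notch3 probe sets are near the dotted line in knockouts and far above it in controls. Notch4 is higher in knockout than in control arrays of both regions, and this was called in cerebellar vessels only.

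Notch4, the receptor known mainly from endothelium, was the other receptor called, and it was higher in knockout cerebellar vessels. Its probe set 1449146_at read 11.58, 11.47 and 11.65 in knockout cerebellar vessels, against 10.98, 11.23 and 10.98 in control cerebellar vessels. All 3 knockout values were above all 3 control values, and the groups of 20.6% of all tested probe sets did not overlap in this comparison. The mean was 11.57 ± 0.09 in knockouts and 11.06 ± 0.14 in controls (SD, n = 3 each), a log2 difference of 0.50 with a standard error of 0.09, or 1.42-fold (95% interval 1.24 to 1.62), with an adjusted p of 0.00935. When the 6 cerebellar arrays were fitted alone, the difference was the same and the adjusted p was 0.0672, which misses the threshold.

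In cerebral vessels Notch4 differed in the same direction by less and was not called. It read 11.31, 11.32 and 11.52 in knockout cerebral vessels, against 11.19, 11.21 and 11.24 in control cerebral vessels. The ranges did not overlap here either, as was so for 23.3% of all tested probe sets in this comparison. The log2 difference was 0.17 with a 95% interval of -0.02 to 0.36, or 1.12-fold with an interval of 0.986 to 1.28, and the adjusted p was 0.319. Averaged over the regions of each mouse, Notch4 was 11.47 ± 0.10 in knockout mice and 11.14 ± 0.07 in control mice (SD, n = 3 each). That difference was 0.34 on the log2 scale (interval 0.17 to 0.51) and was not called, with an adjusted p of 0.0678. The knockout effect on Notch4 was 0.33 larger in cerebellar than in cerebral vessels on the log2 scale (interval 0.07 to 0.60), with an unadjusted p of 0.0197 and an adjusted p of 1, so the regions were not shown to differ. For this difference of effects 0 of 6 receptor probe sets were called, against 0.0264% of all probe sets.

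Endothelial transcripts were measured beside Notch4, since it is known from those cells. None of the 13 tested endothelial markers was called in either region, against 5.79% of all tested genes in cerebral and 3.98% in cerebellar vessels. Their median log2 difference was 0.11 in cerebellar and 0.07 in cerebral vessels, against medians over all tested genes of 0.0083 and -0.01. The log2 of their summed level ran from 17.82 to 18.00 in knockout cerebellar arrays and from 17.80 to 17.86 in control cerebellar arrays. In cerebral vessels it ran from 17.90 to 17.92 in knockouts and from 17.84 to 17.87 in controls. In such bulk samples more cells of a type and more transcript per cell cannot be told apart, and the part of endothelial content in the Notch4 value was not tested.

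Notch1, which is known from endothelium and from arterial specification, was not called in any comparison. The brighter probe set, 1418634_at, read 12.71, 12.66 and 12.66 in knockout cerebral vessels, against 12.93, 12.78 and 12.81 in control cerebral vessels. These ranges did not overlap, with knockouts lower, as was also so for 23.3% of all tested probe sets in this comparison. The log2 difference was -0.16 (interval -0.34 to 0.01), with an adjusted p of 0.300. In cerebellar vessels the values were 12.91, 12.76 and 12.86 in knockouts, against 12.97, 12.99 and 12.71 in controls. Those ranges overlapped, with a difference of -0.05 (interval -0.22 to 0.13) and an adjusted p of 0.850.

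The other Notch1 probe set, 1418633_at, had overlapping ranges in both regions. Its values were 8.72, 8.64 and 8.79 in knockout cerebral vessels, against 8.80, 8.94 and 8.78 in control cerebral vessels, a difference of -0.12 (interval -0.32 to 0.08, adjusted p 0.511). In cerebellar vessels they were 8.89, 8.80 and 8.98 in knockouts, against 8.62, 8.92 and 8.66 in controls. The cerebellar difference was 0.15 (interval -0.05 to 0.35, adjusted p 0.466), opposite in sign to that of 1418634_at. The 2 Notch1 probe sets had a correlation of 0.11 over the 6 control arrays and of 0.36 over all 12 arrays, given as a description.

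Notch2, a receptor of smooth muscle and other cells, was not called in any comparison. The probe set 1455556_at read 9.74, 9.73 and 9.35 in knockout cerebral vessels, against 9.47, 9.67 and 9.06 in control cerebral vessels. In cerebellar vessels it read 9.09, 9.47 and 9.51 in knockouts, against 9.53, 9.69 and 9.37 in controls. The ranges overlapped in both regions. The log2 difference was 0.21 in cerebral vessels (interval -0.19 to 0.60, adjusted p 0.591) and -0.18 in cerebellar vessels (interval -0.57 to 0.22, adjusted p 0.713). On the mean per mouse it was 0.02 (interval -0.30 to 0.33, adjusted p 0.961).

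Whether another receptor transcript was higher where Notch3 was missing can be read from these intervals. Among the 4 tested probe sets of the other receptors, 1 was called higher in cerebellar vessels, that of Notch4, and 0 in cerebral vessels. Over all tested probe sets, 0.835% were called higher in cerebellar and 1.89% in cerebral vessels. Of the 6 receptor probe sets, 3 were called in either direction in cerebellar and 2 in cerebral vessels and on the mean per mouse, against 3.49%, 5.11% and 3.36% of all probe sets. In each comparison these calls include both probe sets of Notch3, the gene that was knocked out, which passed the filter through the control arrays. The only other call was that of Notch4 in cerebellar vessels. For Notch1 the intervals reached up to 1.28-fold higher in cerebellar vessels, by 1418633_at, and up to 1.05-fold in cerebral vessels. Those of Notch2 reached up to 1.52-fold higher in cerebral and 1.16-fold in cerebellar vessels. A missed threshold does not show that these receptors were the same in both genotypes. Protein levels and receptor activity were not measured.

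**Figure D2:**
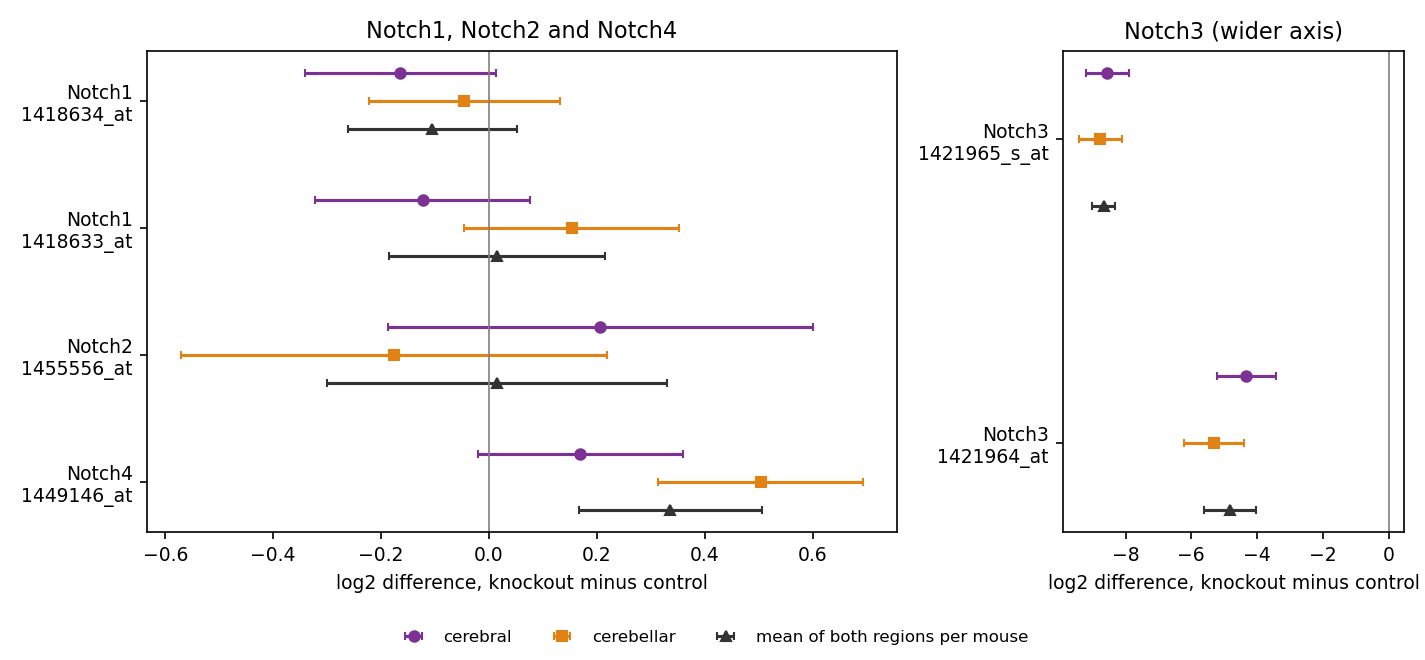
The horizontal axis is the log2 difference of knockout minus control, with 95% intervals, for each tested receptor probe set in cerebral vessels, in cerebellar vessels and averaged over the regions of each mouse; Notch3 has its own, wider axis. The Notch1 and Notch2 intervals cover 0, the Notch4 interval is above 0 in cerebellar vessels and on the mean per mouse, and the Notch3 points lie far below 0; their exact position is not a measured size, because knockout arrays are near the background.

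The receptors were also compared between regions within each genotype. In control mice Notch3 was higher in the cerebellar than in the cerebral array of all 3 mice, by 0.41, 0.41 and 0.94 on the log2 scale with 1421965_s_at and by 0.93, 0.39 and 1.26 with 1421964_at. The group means were 11.84 ± 0.15 in cerebellar and 11.25 ± 0.39 in cerebral vessels with the first, and 8.13 ± 0.12 in cerebellar and 7.28 ± 0.54 in cerebral vessels with the second (SD, n = 3 each). The ranges did not overlap, as was so for 19.1% of all probe sets, and neither probe set was called, with adjusted p of 0.420 and 0.390. With the mouse as a block the adjusted p values were 0.355 and 0.135. Pericyte markers were also higher in cerebellar control arrays, where their summed level on the log2 scale ran from 16.65 to 16.81, against 16.32 to 16.41 in cerebral control arrays, over 8 of 9 listed markers tested; their part in the Notch3 difference was not tested. In knockouts both Notch3 probe sets were near background, and no regional difference is read from them.

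Notch4 was higher in the cerebellar than in the cerebral array of all 3 knockout mice, by 0.27, 0.15 and 0.13, while the control mice differed by -0.21, 0.02 and -0.26. Neither difference was called, with adjusted p of 0.279 in knockouts and 0.485 in controls. Notch1 gave 0.17, 0.16 and 0.18 in the knockout mice by 1418633_at, and -0.17, -0.02 and -0.12 in the control mice. By 1418634_at it gave 0.20, 0.09 and 0.20 in the knockout mice, and 0.04, 0.21 and -0.10 in the control mice. Regional differences of Notch2 were -0.65, -0.27 and 0.16 in the knockout mice, and 0.07, 0.02 and 0.31 in the control mice. In all, 0 of 6 receptor probe sets were called between regions in knockouts and 0 of 6 in controls, where 5.03% and 1.49% of all probe sets were. With the mouse as a block the calls over all probe sets were 2447 in knockouts and 1107 in controls, and the receptors called stayed at 0 of 6 in each.

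**Figure D3:**
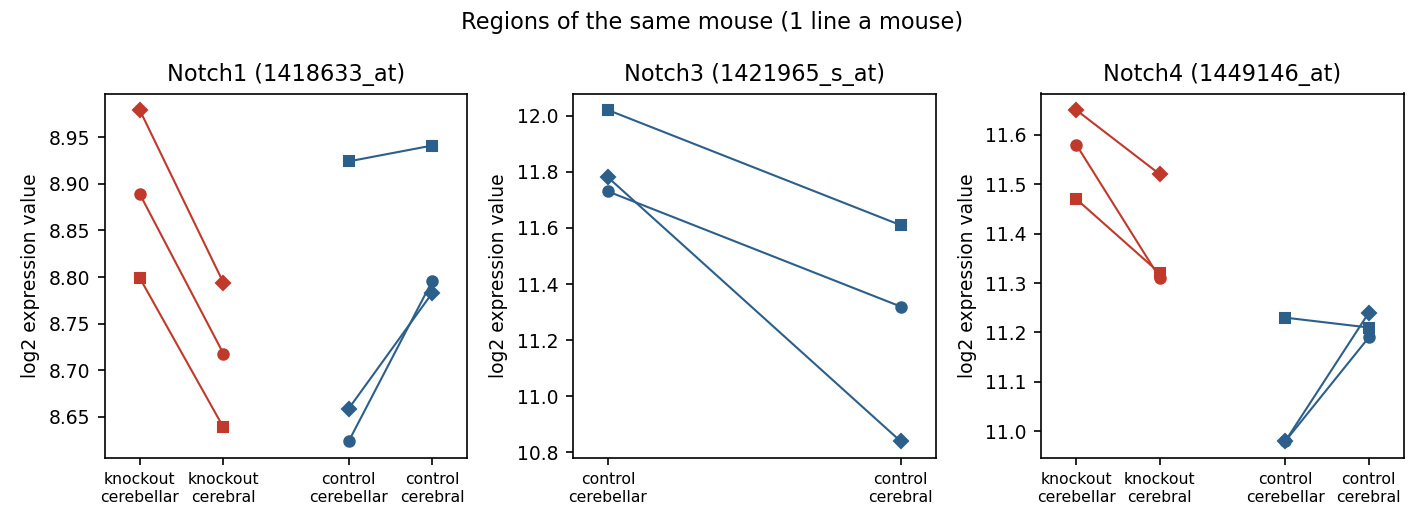
Each line joins the cerebellar and the cerebral array taken as 1 mouse by genotype and replicate number. The vertical axis is the log2 expression value, for 1 probe set of Notch1, Notch3 and Notch4. Knockout mice are red and control mice blue, and the marker shape is the replicate number. Notch3 is shown in control mice because it is at background in knockouts. Notch3 is higher in the cerebellar array of all 3 control mice, and Notch4 is higher in the cerebellar array of all 3 knockout mice.

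The order of the 4 groups differed between receptors, and it takes no account of the calls. Notch3 was highest in control cerebellar vessels, then in control cerebral vessels, and the knockout groups overlapped at background. Notch4 was highest in knockout cerebellar vessels, which overlapped with knockout cerebral vessels, and these did not overlap with control cerebral vessels, which in turn overlapped with control cerebellar vessels. For Notch2 and for the Notch1 probe set 1418633_at, each group overlapped with its neighbours in the order. With 1418634_at the knockout cerebral vessels were lowest and stood apart from the group above them.

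Other genes of the pathway were counted in 6 lists of 54 genes, of which 46 were tested, each by its brightest probe set. Of these, 2 were called higher and 4 lower in cerebral knockout vessels, and 0 higher and 3 lower in cerebellar knockout vessels. Over all 11716 tested genes, 2.19% were called higher and 3.60% lower in cerebral vessels, and 0.973% higher and 3.0% lower in cerebellar vessels. The median log2 difference of the 46 genes was -0.05 in cerebral and -0.03 in cerebellar vessels.

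Of the 6 tested target genes, 3 were called lower in each region. Hey2 and Heyl, which encode transcriptional repressors induced by Notch, and Nrarp, which encodes a Notch-induced inhibitor of the pathway, were called lower in both regions. Hey2 averaged 9.31 in knockout and 10.44 in control cerebral vessels, a difference of -1.13 ± 0.12 (SE), and 9.68 in knockout and 10.89 in control cerebellar vessels, a difference of -1.22 ± 0.12. Nrarp differed by -1.07 ± 0.18 and -1.36 ± 0.18, and Heyl by -0.74 ± 0.16 and -0.75 ± 0.16, in cerebral and cerebellar vessels. The adjusted p values were 0.000358 and 0.000216 for Hey2, 0.00880 and 0.00229 for Nrarp, and 0.0308 and 0.0358 for Heyl. On the mean per mouse Heyl missed the threshold, with an adjusted p of 0.0533, and its calls were lost in 7 of 17 alternatives in cerebral and 8 of 17 in cerebellar vessels, among them no filter and some single arrays left out. Hes1, a widely used Notch target, differed by -0.15 and -0.40 and Hes5 by 0.26 and 0.03 in cerebral and cerebellar vessels, and neither was called.

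Among the genes of endocytosis and turnover, 3 of 13 were called in cerebral vessels and 0 of 13 in cerebellar vessels, against 5.79% and 3.98% of all tested genes. Numb, an endocytic adaptor that inhibits Notch, was higher by 0.35 ± 0.07 (SE, adjusted p 0.0236) in knockout cerebral vessels, and Dtx4, a ubiquitin ligase of the Deltex family, by 0.92 ± 0.23 (adjusted p 0.0486). Dtx3, of the same family, was lower there, with a difference of -0.54 ± 0.11 (adjusted p 0.0229), and on the mean per mouse, with -0.50 ± 0.06 (adjusted p 0.0119). Under alternatives, the cerebral call of Dtx4 was kept in 7 and lost in 9. That of Numb was kept in 11 and lost in 6, and that of Dtx3 was kept in 12 and lost in 5. The call of Dtx3 on the mean per mouse was kept in 15 and lost in 0. All 3 cerebral calls were lost when only the 6 cerebral arrays were fitted. Microglia markers were higher in the same arrays, with 3 of 9 called in cerebral and 0 of 9 in cerebellar vessels, against 2.19% and 0.973% of all tested genes called higher. Their summed level on the log2 scale ran from 16.42 to 16.88 in knockout and from 15.78 to 16.25 in control cerebral arrays, and from 15.85 to 15.94 in knockout and from 15.57 to 15.85 in control cerebellar arrays, and none of the 9 was at or under the background on all 3 arrays of a group. The part of microglial content in the Numb and Dtx4 values was not tested. Neurl1b, a ubiquitin ligase that acts on Notch ligands, differed by -0.24 in cerebral and -0.69 in cerebellar vessels, and Dtx1 by -0.33 and 0.15, with no call.

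No tested ligand, glycosylation enzyme, protease or nuclear partner was called between genotypes, out of 6, 6, 8 and 7 genes. Over all tested genes, 5.79% were called in cerebral and 3.98% in cerebellar vessels. The endothelial ligand Dll4 differed by -1.05 in cerebral and -0.68 in cerebellar vessels, with adjusted p of 0.0727 and 0.283. Dlk1, a Delta-like protein without the usual receptor-binding domain, differed by 0.80 in cerebellar vessels, with an adjusted p of 0.553. In cerebral vessels it was at or under the background on all 3 knockout and 2 of 3 control arrays, and no difference is given. Between regions Dlk1 was the only pathway gene of the 46 that was called, in both genotypes, where 5.97% of all tested genes were called in knockouts and 1.83% in controls. It was at least 25.7-fold higher in cerebellar than in cerebral vessels of knockouts, where all 3 cerebral arrays were at or under the background, and at least 8.39-fold higher in controls, where 2 of 3 were. The call in controls was lost in 7 of 16 alternatives. Rfng and Lfng, which modify the sugars of Notch receptors, differed by -0.31 and 0.17 in cerebral vessels. Furin, which cleaves Notch receptors on their way to the surface, differed by 0.28 and the gamma-secretase subunit Aph1b by -0.25 in cerebellar vessels. Spen, a corepressor partner of RBPJ, differed by -0.43 (adjusted p 0.0895) and the coactivator Ep300 by -0.30 in cerebral vessels.

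**Figure D4:**
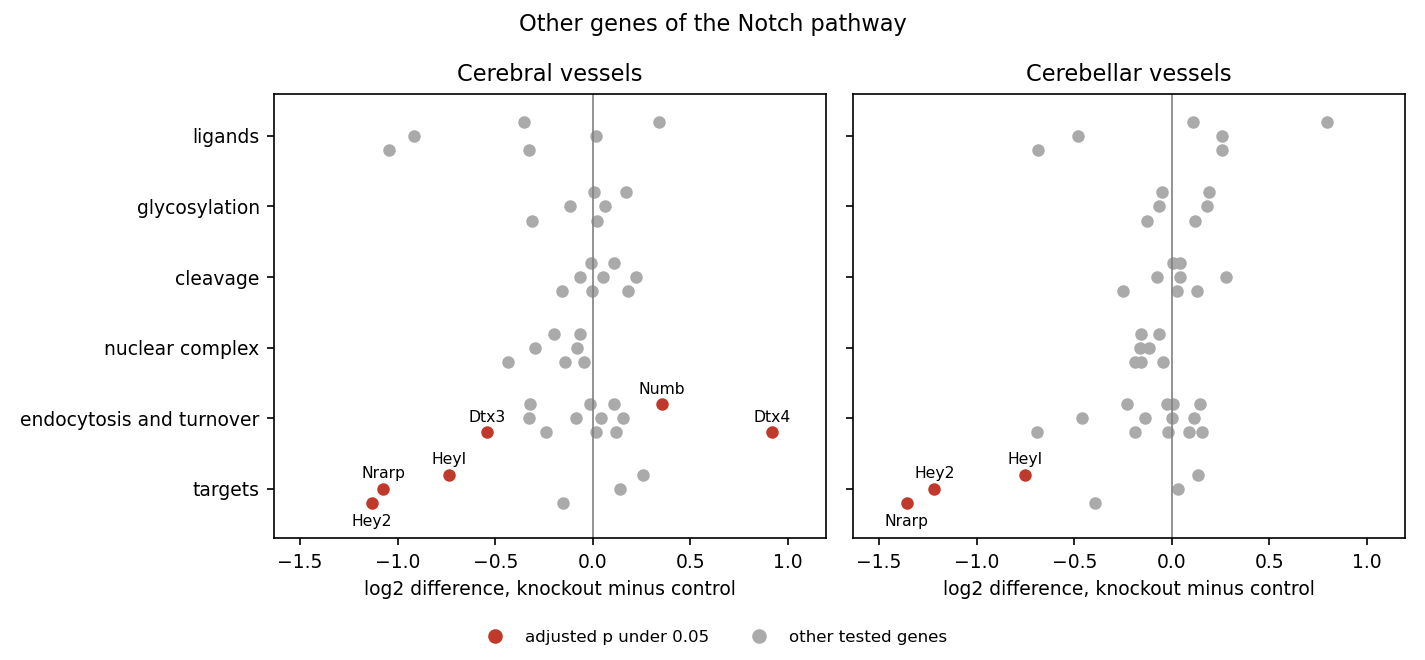
The horizontal axis is the log2 difference of knockout minus control for the 46 tested genes of the 6 pathway lists, with 1 point a gene and red points for an adjusted p under 0.05; the vertical spread within a list only separates the points. The called targets Hey2, Heyl and Nrarp lie between -0.74 and -1.36 in both regions, and the ligands, glycosylation, cleavage and nuclear complex lists hold no red point.

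Mural cell markers were lower in knockout vessels beside Notch3 and its targets. Of the 8 smooth muscle markers, 6 were called lower in each region, against 3.60% of all tested genes in cerebral and 3.0% in cerebellar vessels. Their summed level on the log2 scale ran from 15.13 to 15.30 in knockout and from 15.72 to 15.93 in control cerebral arrays. In cerebellar arrays it ran from 15.21 to 15.38 in knockouts and from 15.85 to 16.09 in controls. Of the 8 tested pericyte markers, 4 were called lower in cerebral and 3 in cerebellar vessels, set against the same shares of all tested genes, with summed levels of 16.19 to 16.22 in knockout and 16.32 to 16.41 in control cerebral arrays. The cerebellar pericyte sums were 16.52 to 16.61 in knockouts and 16.65 to 16.81 in controls. As a plain mean of log2 values, the pericyte markers ran from 11.29 to 11.4 in knockout and from 11.76 to 11.98 in control cerebral arrays. In cerebellar arrays this mean ran from 11.94 to 12.14 in knockouts and from 12.38 to 12.62 in controls. No tested marker of either list was at or under the background on all 3 arrays of a group. The part of mural cell number in the levels of Notch3 and its targets was not tested.

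Genes whose values ran most closely with a receptor over the 12 arrays were named by Pearson's r, as a description in which the arrays share groups and mice. For Notch1 (1418634_at) these were Itga1 at 0.94, Helz at 0.92, Lmtk2 at 0.92, Glg1 at 0.91 and Iqsec1 at 0.90. Those of Notch2 were Tatdn2 at 0.92, Pls3 at 0.89, Birc6 at 0.86, Sinhcaf at 0.85 and Yme1l1 at 0.82. Notch4 ran most closely with Spag9 at 0.95, and then with Jdp2, Rccd1, Herc4 and Dennd3, all at 0.92. For Notch3 the closest were Ephx3, Kcnab1, Ccr6, Rgs7bp and C1s1, at 0.99 each, and these values largely restate the difference between genotypes. Within the 6 control arrays they were Dsp, Slc29a4, Aqp1, Phldb2 and Sort1, from 0.98 to 0.99.

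Notch3 and Notch4 lie on the same chromosome with 82 protein-coding genes between them, so those neighbours were counted. Of 58 tested genes, 3 were called in cerebral and 3 in cerebellar vessels, or 5.17% in each, against 5.79% of all tested genes in cerebral and 3.98% in cerebellar vessels. Ephx3, an epoxide hydrolase, was lower in knockouts, with log2 differences of -4.17 in cerebral and -4.63 in cerebellar vessels and adjusted p of 1.14e-07 and 3.92e-08. H2-DMa, which helps load peptides on MHC class II proteins, was higher by 2.60 and 1.77, with adjusted p of 0.000194 and 0.00261. Tap1, a peptide transporter, was lower in knockout cerebral vessels (-0.50, adjusted p 0.0268) and missed the threshold in cerebellar vessels (-0.25, adjusted p 0.290). Cyp4f13, a cytochrome P450, was higher in knockout cerebellar vessels (0.47, adjusted p 0.00608) and missed it in cerebral vessels (0.16, adjusted p 0.272). The strain origin of this chromosome segment in the knockout mice is not given in the sources used here, and its part in the Notch4 value was not tested.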

How the data were processed

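RNA of cerebral and cerebellar vessel fragments of Notch3 knockout and control mice was hybridised to 12 arrays, 3 for each genotype and region. About 100 ng of total RNA was used with a small sample amplification, per the labels' protocols. The authors ran GCRMA 2.32.0, per the submitters' processing notes, and the deposited table holds its log2 values, which were used unchanged. Of 45037 probe sets, 34945 named 1 gene in the platform annotation, 932 several and 9160 none; 34741 of the first matched the gene table by gene ID.

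Probe sets were tested with limma 3.58.1 on R 4.3.3 (lmFit, eBayes, two-sided) where at least 3 of 12 arrays exceeded the median of all values, 3.27, with Benjamini-Hochberg adjustment over the 22767 that did. Group means of all 12 arrays were fitted (8 residual degrees of freedom), with the arrays taken as independent. The average of each mouse's regions was fitted 3 against 3 (4 residual degrees of freedom). Same-numbered arrays of 1 genotype were taken as 1 mouse, and their deviations from the group means correlated at 0.40 to 0.67 over probe sets. The p values of the fit of 12 arrays take no account of these shared mice. A pathway gene stood by its brightest probe set.

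The members and gene lists were chosen with earlier results of these data known. Named beside the receptors were the called genes of each pathway list and up to 2 others with the largest change, the 5 genes closest to each receptor, and up to 6 called genes between Notch3 and Notch4. The number of arrays limits the precision. The procedure was tested on simulated data for the cerebral comparison of genotypes. It recovered 54.4% of log2 changes of 0.5, 89.4% of changes of 1 and 97% of changes of 2, with 9 false calls. These sizes were given to 68, 66 and 66 of 22767 probe sets, with noise independent between arrays. In the data 5.11% of probe sets were called in this comparison and arrays of 1 mouse correlated, so the recovered shares need not hold there.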

Additional observations from a re-analysis of the deposited data

Results flagged for a closer look

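The regional difference of Notch1 probe set 1418633_at ran in opposite directions in the genotypes. The cerebellar array was higher than the cerebral array in all 3 knockout mice, by 0.17, 0.16 and 0.18 on the log2 scale. It was lower in all 3 control mice, by -0.17, -0.02 and -0.12. This pattern was looked for in the 6 tested receptor probe sets, and the share of all tested probe sets showing it was not counted. The difference between the genotypes' regional effects was 0.28 (95% interval -0.01 to 0.56), with an unadjusted p of 0.0537 and an adjusted p of 1 by limma, and was not called. The brighter Notch1 probe set, 1418634_at, was also higher in the cerebellar array of all 3 knockout mice, by 0.20, 0.09 and 0.20. In the control mice it differed by 0.04, 0.21 and -0.10, without a shared direction. Its difference between the genotypes' regional effects was 0.12 (interval -0.13 to 0.37) and was not called.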

How the results depend on the processing

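Of 612 values of receptor probe sets under alternatives, 595 kept their direction and their side of the threshold. The Notch4 difference in cerebellar vessels, 0.50, kept its size and lost its call with only the 6 cerebellar arrays (adjusted p 0.0672) and with the replicate number as a block (0.162). Left-out arrays gave adjusted p up to 0.0457, and all alternatives together 0.0053 to 0.162. On the mean per mouse it became called (0.0449) with a filter at the 75th percentile. Receptor probe sets called fell to 1 with 1 probe set per gene in cerebral vessels and on the mean per mouse, and to 1 with the 75th percentile filter in cerebral vessels; fewer receptor probe sets were tested there.

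Direction turned only in values that were not called. With array weights Notch2 on the mean per mouse was -0.0771. Leaving out arrays or mice gave ranges of -0.13 to 0.0034 for Notch1 1418634_at in cerebellar vessels, -0.0266 to 0.0874 for Notch1 1418633_at and -0.11 to 0.12 for Notch2 on the mean per mouse. Between regions they gave -0.0028 to 0.14 for Notch1 1418634_at and -0.0374 to 0.27 for Notch2 in controls, -0.60 to 0.17 for Notch3 1421964_at in knockouts, where it is at background and its sign carries no information, and -0.48 to 0.077 for the difference of the knockout effect on Notch3 1421965_s_at.

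Same-numbered arrays of the 2 genotypes correlated at -0.14 to 0.20 in their deviations from the group means. Such correlations cannot settle whether the numbers pair mice of the 2 genotypes, and the main fit did not pair them. With the number as a replicate block, there were 332 calls over all probe sets in cerebral and 179 in cerebellar vessels, against 1164 and 794 without it. The list calls of Hey2, Nrarp and Heyl in cerebellar vessels and of Heyl, Numb, Dtx3 and Dtx4 in cerebral vessels were lost. Without a filter calls were 711 in cerebral vessels, 518 in cerebellar vessels, 386 (765 with it) per mouse, 576 and 139 (1145 and 340 with it) between regions in knockouts and controls, and 3 (6 with it) for the difference of effects. With 1 probe set per gene they were 748, 495 and 472 in the first 3. Array weights gave 2102 in cerebral vessels and 1037 between regions in controls. Only the arrays compared gave 460 in cerebral and 453 in cerebellar vessels, and 348 and 140 between regions in knockouts and controls. The mouse as a fixed or a random replicate block gave 2447 and 2629 between regions in knockouts, 1107 and 1086 in controls, and a fixed block 1 for the difference of effects. That difference had 0 calls with the 75th percentile filter and 2 with a term for Xist, added after seeing the data. Leaving out arrays gave 621 to 1371, 489 to 630, 349 to 619, 470 to 1610, 96 to 281 and 2 to 21 calls, in the order cerebral, cerebellar, per mouse, regions in knockouts, regions in controls and difference of effects. The cause of these shifts was not tested.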
